A study of Homo sapiens with 6 samples.

Results

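Aldo-keto reductases are enzymes that use NADPH to reduce aldehydes and ketones to alcohols. The 10 genes described here are AKR1A1, AKR1B1, AKR1B10, AKR1B15, AKR1C1, AKR1C2, AKR1C3, AKR1C4, AKR1E2 and AKR7A2, taken by gene name from the 50868 genes of the count tables. Which genes were listed was chosen from earlier results of the same contrast, siRCC2 against siCtrl, so their levels, fold changes and calls in the fit over all genes are given as a description and are no independent evidence. The data are RNA sequencing counts from DU145, a human prostate cancer cell line that grows without androgen. The first group, siRCC2, held 3 libraries labelled as RCC2 knockdown, and the second, siCtrl, held 3 libraries labelled as RCC2 wild type. The series title concerns proliferation, migration, Hedgehog signalling through GLI1 and stem-like cells. All 6 libraries came from this single line, and the labels do not say whether the replicates of a group were separate cultures, so the spread between them may be technical.

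The AKR1C enzymes are hydroxysteroid dehydrogenases that turn active steroid hormones on or off in the cells where they act, which has made them a subject of work on prostate cancer. The AKR1B enzymes handle sugars, retinaldehyde and the reactive aldehydes that arise from lipids. Several human genes of both subfamilies are known targets of NRF2, the transcription factor of the oxidative stress response.

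Close paralogs limit what a count of 1 gene can show, so the sequences come first. The coding sequences of AKR1C1, AKR1C2, AKR1C3 and AKR1C4 in GENCODE release 29 on GRCh38 were each 972 bases long, and those of AKR1C1 and AKR1C2 were identical at 953 bases (98.0%), leaving 19 that differ. The opening 60 coding bases of the 4 genes are shown first, because AKR1C1 and AKR1C2 differ there at 1 base only. Capitals mark bases that differ from AKR1C1.
AKR1C1 coding 1-60: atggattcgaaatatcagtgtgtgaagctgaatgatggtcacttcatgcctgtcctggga
AKR1C2 coding 1-60: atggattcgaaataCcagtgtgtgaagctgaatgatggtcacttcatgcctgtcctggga
AKR1C3 coding 1-60: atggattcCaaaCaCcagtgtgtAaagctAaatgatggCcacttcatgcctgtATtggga
AKR1C4 coding 1-60: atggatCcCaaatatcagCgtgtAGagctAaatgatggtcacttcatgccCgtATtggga

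The stretch from coding base 103 to 162 is shown because it is where AKR1C1 and AKR1C2 differ most. AKR1C2 differs from AKR1C1 there at 10 of 60 bases, AKR1C3 at 7 and AKR1C4 at 5. Capitals again mark bases that differ from AKR1C1.
AKR1C1 coding 103-162: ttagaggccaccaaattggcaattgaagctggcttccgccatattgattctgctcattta
AKR1C2 coding 103-162: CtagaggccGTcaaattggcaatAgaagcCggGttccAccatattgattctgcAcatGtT
AKR1C3 coding 103-162: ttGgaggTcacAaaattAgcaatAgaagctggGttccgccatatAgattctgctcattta
AKR1C4 coding 103-162: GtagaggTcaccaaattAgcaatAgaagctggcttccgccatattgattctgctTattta

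Over the whole coding sequence AKR1C1 and AKR1C3 were 91.5% identical, AKR1C2 and AKR1C3 91.0%, and AKR1C1 and AKR1C4 88.7%. AKR1B10 and AKR1B15 were identical at 889 of 1035 alignment columns (85.9%). Their coding sequences were 951 and 1035 bases long, and the extra length of AKR1B15 counts as differing. This value is therefore not comparable with those of the AKR1C genes, which are equal in length. AKR7A2, which belongs to another family of the superfamily, was between 46.7% and 48.4% identical to the other 9 genes. A read is only ambiguous where a long run of bases is the same, so every 50-base stretch of each coding sequence was looked up in the other genes. AKR1C1 and AKR1C2 shared 478 of 923 such stretches (51.8%), AKR1C2 and AKR1C3 169 (18.3%), AKR1C1 and AKR1C3 135 (14.6%), and AKR1B10 found 178 of its 902 (19.7%) in AKR1B15. AKR1B1, AKR1A1, AKR1E2 and AKR7A2 shared no coding stretch of that length with any of the other 9 genes.

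**Figure D1:**
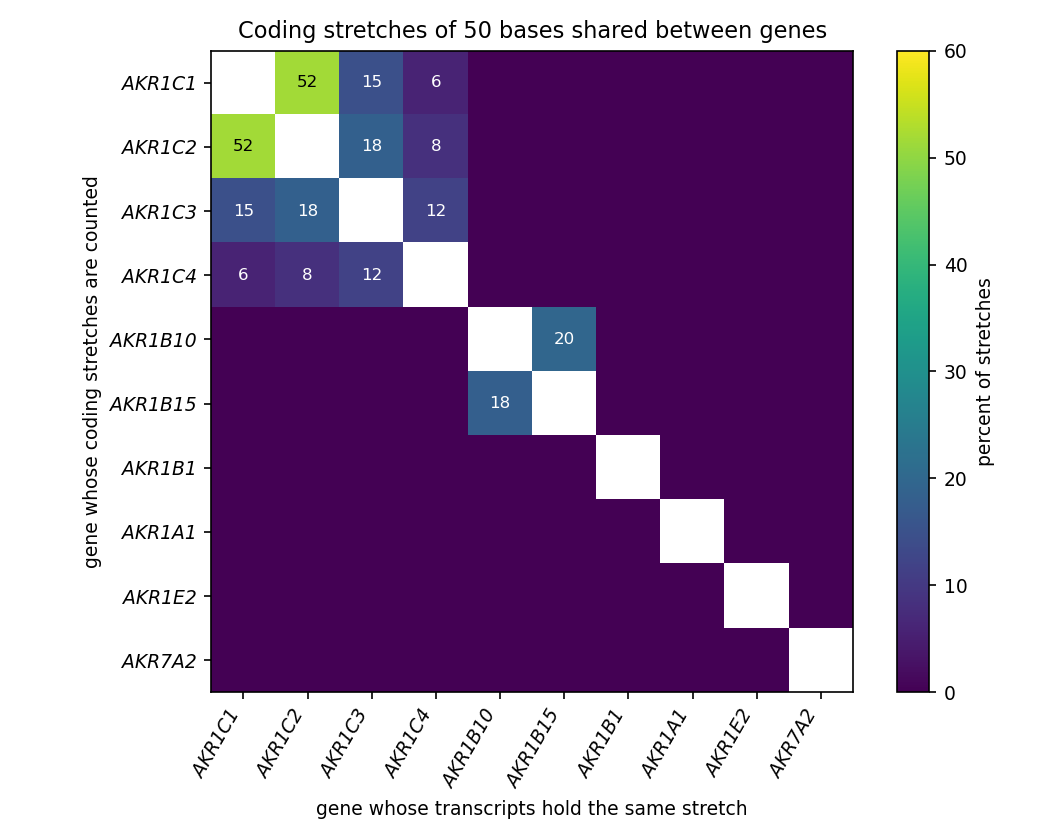
Each cell gives the percent of the 50-base coding stretches of the gene in the row that also occur in transcripts of the gene in the column. Sharing is seen within the 4 AKR1C genes, highest at 51.8% between AKR1C1 and AKR1C2, and between AKR1B10 and AKR1B15, and the remaining 4 genes have none.

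In complete transcripts, untranslated regions included, 52.2% of the 50-base stretches of AKR1C2 occurred in other genes, against 28.7% for AKR1C1, 17.4% for AKR1B10, 12.1% for AKR1C3 and 11.9% for AKR1C4. AKR7A2 shared 7.997%, all of it found in AKR7L, and part of it also in AKR7A3. For stretches of 100 bases the values were 32.9% for AKR1C2, 17.4% for AKR1C1, 4.98% for AKR1C3 and 2.01% for AKR1B10. The submitters' processing notes name RSEM, which divides ambiguous reads among genes by estimation. Separate values of AKR1C1 and AKR1C2 therefore rest on fewer reads than their counts show, and sums over the AKR1C genes are given beside them.

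The promoters of the 3 AKR1C genes that were detected are shown because these genes moved together and sit beside each other. RefSeq windows on GRCh38.p14 run from 250 bases before to 50 bases after the transcription start. Capitals in AKR1C2 and AKR1C3 mark bases that have no identical partner in an alignment with the AKR1C1 window, including bases at the window ends.
AKR1C1, chr10:4963165-4963464, plus strand: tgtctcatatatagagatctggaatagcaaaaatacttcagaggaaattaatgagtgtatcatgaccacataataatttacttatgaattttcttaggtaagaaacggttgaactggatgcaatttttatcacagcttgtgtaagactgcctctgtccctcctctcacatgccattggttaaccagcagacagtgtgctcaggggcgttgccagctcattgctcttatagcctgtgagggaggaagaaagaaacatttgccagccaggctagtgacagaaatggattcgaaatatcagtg
AKR1C2, chr10:5003808-5004107, minus strand: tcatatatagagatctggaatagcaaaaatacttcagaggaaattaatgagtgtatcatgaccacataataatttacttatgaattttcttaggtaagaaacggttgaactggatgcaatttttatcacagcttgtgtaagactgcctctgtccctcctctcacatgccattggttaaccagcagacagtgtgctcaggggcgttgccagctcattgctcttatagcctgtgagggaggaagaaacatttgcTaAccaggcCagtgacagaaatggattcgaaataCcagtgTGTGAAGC
AKR1C3, chr10:5048531-5048830, plus strand: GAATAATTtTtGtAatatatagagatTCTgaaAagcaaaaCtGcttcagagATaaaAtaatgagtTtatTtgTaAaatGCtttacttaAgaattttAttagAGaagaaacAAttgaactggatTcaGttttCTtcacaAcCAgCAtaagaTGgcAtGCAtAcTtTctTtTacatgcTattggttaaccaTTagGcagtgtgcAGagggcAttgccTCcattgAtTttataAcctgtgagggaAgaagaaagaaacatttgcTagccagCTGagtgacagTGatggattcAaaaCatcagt

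The AKR1C2 window matched AKR1C1 at 288 of 308 alignment columns (93.5%), with an unbroken identical run of 245 bases. The AKR1C3 window shown was 73.5% identical to AKR1C1 with a longest run of 18 bases, a second AKR1C3 start at chr10:5094164-5094463 was 71.0% identical, and AKR1C4 at chr10:5196587-5196886 was 60.9% identical. The letters TGACNNNGC, the core of the antioxidant response element through which NRF2 acts, were searched on both strands. No window of AKR1C1, AKR1C2, AKR1C3, AKR1C4, AKR1B1, AKR1A1 or AKR1E2 held them, and each of the overlapping AKR7A2 windows held 3 matches. Of all 35116 windows of that length, 13.3% held at least 1 match. AKR1B10 and AKR1B15 had no window to search. Sequence outside these windows was not searched for any gene, so matches farther from the start sites would be missed.

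AKR1C1, AKR1C2, AKR1C3 and AKR1B10 were higher in siRCC2 than in siCtrl, by 3.59-fold to 5.94-fold. In these bulk libraries, more cells with a transcript and more of it per cell cannot be told apart. Of the 10 genes, 9 passed the filter on low counts and could be fitted. With edgeR's quasi-likelihood test on all 16536 fitted genes at a Benjamini-Hochberg adjusted p under 0.05, these 4 genes were called higher, against 20.7% of all fitted genes. AKR1B1, 1 gene of the 9, was called lower, against 21.1% of all fitted genes. In either direction 41.8% of all fitted genes were called. The CPM values of the groups, scaled by TMM, did not overlap for 6 of the 9 genes, against 55.4% of all fitted genes. Since the genes were chosen with this contrast known, nothing is read from these counts. The median log2 fold change over the 9 genes was 0.34, the value of AKR1B15, which had few counts, and -0.02 was the median over all fitted genes.

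**Figure D2:**
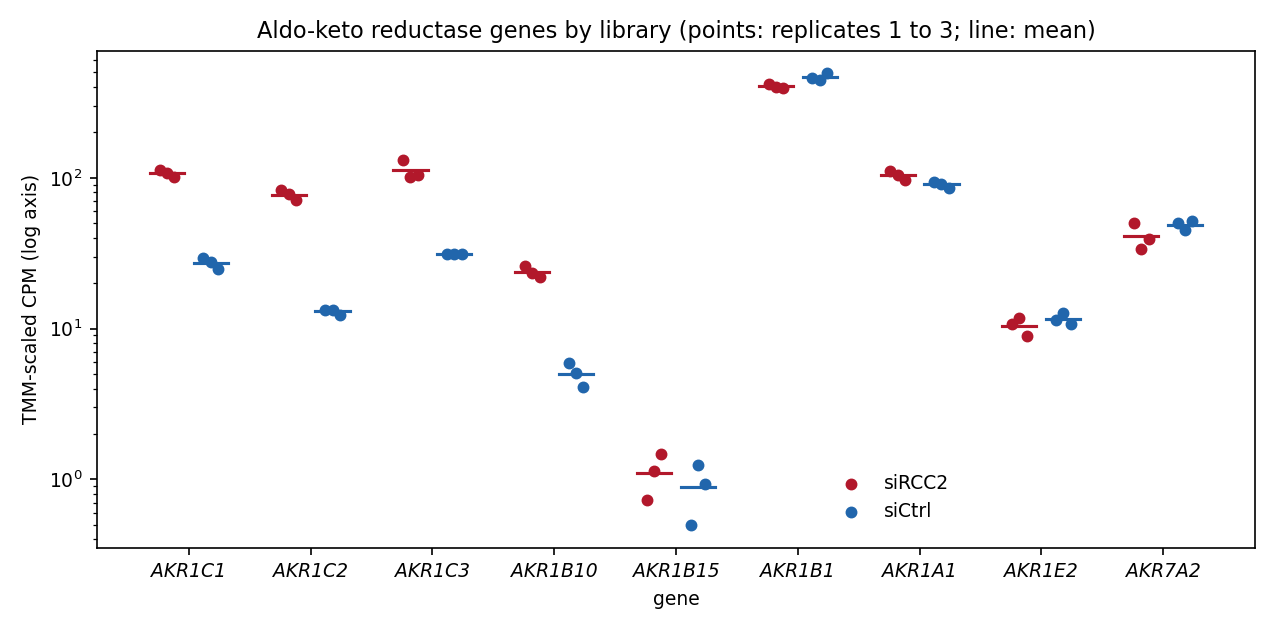
TMM-scaled CPM of the 9 fitted genes on a log axis, with the 3 siRCC2 libraries left of the 3 siCtrl libraries and a line at each mean. AKR1C1, AKR1C2, AKR1C3 and AKR1B10 lie apart in the groups, while AKR1B15, AKR1E2 and AKR7A2 overlap. CPM is not divided by gene length, so heights of different genes are not compared here.

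AKR1C1 (ENSG00000187134), which inactivates progesterone, stood at chromosome 10, 4963253 to 5107522, in the deposited tables. It had 113.1, 108.3 and 100.6 CPM in siRCC2 replicates 1 to 3, against 29.23, 27.59 and 24.78 CPM in siCtrl replicates 1 to 3. The lowest siRCC2 library was more than 3-fold above the highest siCtrl library. The means were 107 ± 6.34 CPM in siRCC2 and 27.2 ± 2.25 CPM in siCtrl (SD, n = 3 each), a ratio of 3.95 and a log2 fold change of 1.98 ± 0.09 (SE).

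AKR1C2 (ENSG00000151632; chromosome 10, 4922564 to 5135226), which reduces dihydrotestosterone to a weak metabolite, showed the largest fold change of the 9 genes. Its CPM were 83.32, 77.49 and 71.25 in siRCC2 replicates 1 to 3, against 13.35, 13.36 and 12.37 in siCtrl replicates 1 to 3. The siCtrl libraries were close to each other and all far below the siRCC2 libraries. The means were 77.4 ± 6.03 CPM in siRCC2 and 13.0 ± 0.572 CPM in siCtrl, a ratio of 5.94 and a log2 fold change of 2.57 ± 0.10. Only 45 of the 16536 fitted genes had a larger log2 fold change than AKR1C2.

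AKR1C3 (ENSG00000196139; chromosome 10, 5035354 to 5107686) makes testosterone from androstenedione and also acts as a prostaglandin F synthase. It had 131.5, 100.8 and 103.8 CPM in siRCC2 replicates 1 to 3, against 31.21, 31.42 and 31.02 CPM in siCtrl replicates 1 to 3. siRCC2 replicate 1 was above the other 2 siRCC2 libraries, and the siCtrl libraries were nearly equal. The means were 112 ± 16.9 CPM in siRCC2 and 31.2 ± 0.2 CPM in siCtrl, a ratio of 3.59 and a log2 fold change of 1.84 ± 0.12. Of all fitted genes, 154 (0.931%) had a log2 fold change at least that large.

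The gene name AKR1C3 also stood on a further row (ENSG00000282883), which GENCODE 29 does not hold and which lies inside the main row's interval. That row had 120, 75 and 100 counts in siRCC2, against 37, 32 and 32 counts in siCtrl, and its log2 fold change was 1.64 ± 0.26. With both rows added, the means were 117.5 ± 18.6 CPM in siRCC2 and 32.95 ± 0.252 CPM in siCtrl, a ratio of 3.57.

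AKR1C4 (ENSG00000198610; chromosome 10, 5195462 to 5218949), a liver enzyme of bile acid synthesis, had 0 counts in all 6 libraries. A count of 0 allows up to 3 counts, or 0.155 to 0.181 CPM in the siRCC2 libraries and 0.149 to 0.162 CPM in the siCtrl libraries, counting error only. It was therefore not fitted. AKR1D1, a liver steroid reductase of the same superfamily, had at most 2 counts in any library.

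Added together, the 4 AKR1C genes, with both AKR1C3 rows, gave 335.2, 290.5 and 280.8 CPM in siRCC2, against 75.6, 74.1 and 69.8 CPM in siCtrl. The means were 302 ± 29.02 CPM in siRCC2 and 73.2 ± 3.01 CPM in siCtrl, a ratio of 4.13 and a log2 fold change of 2.05 ± 0.09. The sum does not depend on how reads were divided among these 4 paralogs. AKR1C1 and AKR1C2, the closest pair, together gave 184.7 ± 12.4 CPM in siRCC2 and 40.2 ± 2.79 CPM in siCtrl, a ratio of 4.59.

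The balance within the AKR1C genes differed between the groups for the closest pair. AKR1C2 counts were 0.737, 0.716 and 0.709 of AKR1C1 counts in siRCC2 replicates 1 to 3, against 0.457, 0.484 and 0.499 in siCtrl replicates 1 to 3. The siRCC2 ratios were all above the siCtrl ratios. AKR1C3 counts were 1.162, 0.931 and 1.032 of AKR1C1 counts in siRCC2, against 1.068, 1.139 and 1.252 in siCtrl, and these ranges overlapped. Whether the division of shared reads took part in the ratio of AKR1C2 to AKR1C1 was not tested.

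The deposited intervals of AKR1C1 and AKR1C2 are wider than those of GENCODE 29, which end at 4983283 for AKR1C1 and run from 4987400 to 5018031 for AKR1C2. As deposited they overlap each other and AKR1C3, and AKR1C1 and AKR1C2 lie on opposite strands. Whether the counting used strand is not given in the sources used here, so reads from overlapping parts of the genes cannot be told apart. The antisense gene AL391427.1 at AKR1C2 had 5, 13 and 14 counts in siRCC2, against 4, 2 and 1 counts in siCtrl, far below AKR1C2 itself.

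AKR1B10 (ENSG00000198074; chromosome 7, 134527592 to 134541408) reduces retinaldehyde and lipid-derived aldehydes and is known for its high level in some lung and liver tumours. It had 25.82, 23.29 and 22.12 CPM in siRCC2 replicates 1 to 3, against 5.905, 5.066 and 4.07 CPM in siCtrl replicates 1 to 3. No siCtrl library came near a siRCC2 library. The means were 23.7 ± 1.89 CPM in siRCC2 and 5.01 ± 0.918 CPM in siCtrl, a ratio of 4.74 and a log2 fold change of 2.24 ± 0.16.

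AKR1B15 (ENSG00000227471; chromosome 7, 134549136 to 134579875), the next gene along and the closest relative of AKR1B10, had few counts. There were 12, 22 and 28 counts in siRCC2, against 10, 23 and 18 counts in siCtrl, and the groups overlapped. Its log2 fold change was 0.34 ± 0.40. With AKR1B10 and AKR1B15 added together, the means were 24.85 ± 1.52 CPM in siRCC2 and 5.90 ± 0.784 CPM in siCtrl, and the log2 fold change was 2.07 ± 0.13.

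AKR1B1 (ENSG00000085662; chromosome 7, 134442350 to 134459284) is aldose reductase, which turns glucose into sorbitol in the polyol pathway. It had 417.0, 399.8 and 393.5 CPM in siRCC2 replicates 1 to 3, against 461.6, 443.2 and 492.7 CPM in siCtrl replicates 1 to 3. Each siRCC2 library was below each siCtrl library, by a narrow margin. The means were 403 ± 12.2 CPM in siRCC2 and 466 ± 25.0 CPM in siCtrl, a ratio of 0.866 and a log2 fold change of -0.21 ± 0.06. The call ended when any of 5 of the 6 libraries was left out and was kept without siRCC2 replicate 1. It also ended with DESeq2 size factors, with the DESeq2 Wald test, with a filter of a mean of at least 1 CPM and with the replicate block. AKR1B10 counts were 0.0619, 0.0582 and 0.0562 of AKR1B1 counts in siRCC2, against 0.0128, 0.0114 and 0.00826 in siCtrl.

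**Figure D3:**
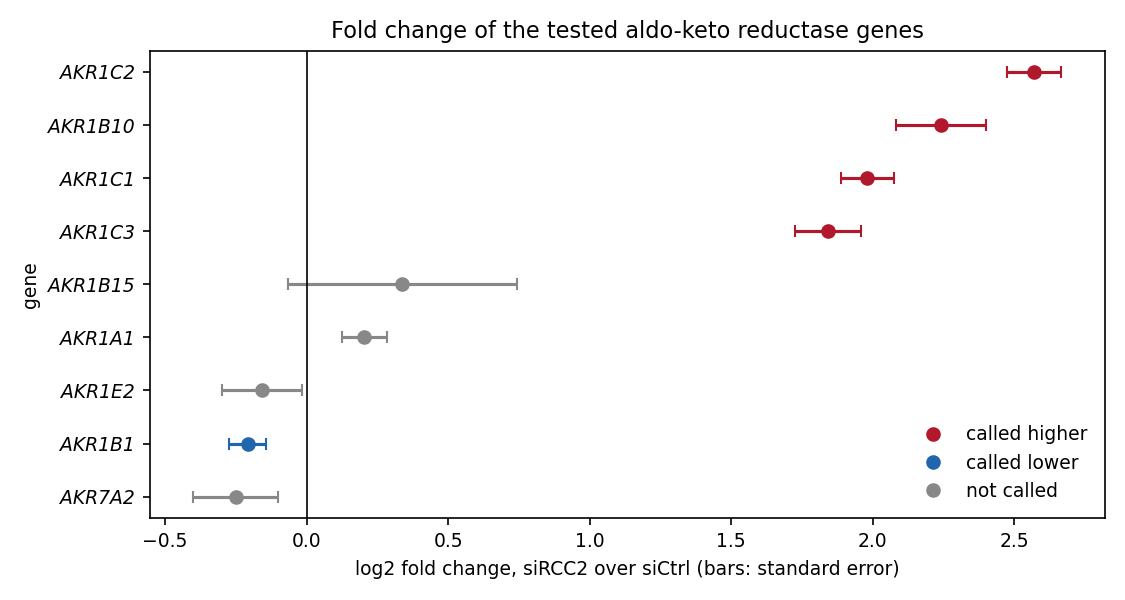
Log2 fold change of siRCC2 over siCtrl for the 9 fitted genes, with bars of 1 standard error from the edgeR fit. AKR1C2, AKR1B10, AKR1C1 and AKR1C3 lie between 1.84 and 2.57, and the other 5 genes between -0.25 and 0.34.

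AKR1A1 (ENSG00000117448; chromosome 1, 45550543 to 45570049) is the general aldehyde reductase, which also acts on glucuronate. It had 110.5, 104.7 and 97.05 CPM in siRCC2, against 93.58, 91.61 and 85.74 CPM in siCtrl. The groups did not overlap, but the lowest siRCC2 library was close to the highest siCtrl library. The log2 fold change was 0.20 ± 0.08 and was not called. Without siRCC2 replicate 3 it was 0.26 and called.

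AKR1E2 (ENSG00000165568; chromosome 10, 4786629 to 4848062), an anhydrofructose reductase that lies beside the AKR1C genes, had 176, 227 and 169 counts in siRCC2, against 231, 234 and 208 counts in siCtrl. Its means were 10.4 ± 1.43 CPM in siRCC2 and 11.6 ± 0.954 CPM in siCtrl, with overlapping groups and a log2 fold change of -0.16 ± 0.14. AKR7A2 (ENSG00000053371; chromosome 1, 19303965 to 19312146), which reduces succinic semialdehyde and the dialdehyde of aflatoxin, had 50.3, 33.9 and 39.32 CPM in siRCC2, against 50.46, 44.94 and 51.42 CPM in siCtrl. siRCC2 replicate 1 lay among the siCtrl libraries and the other siRCC2 libraries below them. The log2 fold change was -0.25 ± 0.15 and was not called, but without siRCC2 replicate 1 it was -0.43 and called.

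Counts were divided by the length of each gene's exons to compare the genes with each other, and scaled as in TPM. On this scale AKR1B1 was the most abundant of the 10 genes in both groups, with 318 ± 7.13 in siRCC2 and 399 ± 27.4 in siCtrl. It made up 47.2% of the per-length sum of the 10 genes in siRCC2 and 62.5% in siCtrl. AKR1A1 came next, with 96.2 ± 1.63 in siRCC2 and 90.6 ± 2.53 in siCtrl. AKR1C3 followed in siRCC2 with 71.2 ± 7.65, against 21.6 ± 0.311 in siCtrl, where AKR7A2 stood above it. With these lengths AKR7A2 had 66.5 ± 11.1 in siRCC2, not apart from AKR1C3 beyond the spread, and 86.1 ± 6.80 in siCtrl, not apart from AKR1A1 beyond the spread.

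AKR1B10 had a per-length level of 39.3 ± 1.14 in siRCC2, against 8.98 ± 1.50 in siCtrl. AKR1C1 had 35.3 ± 0.508 in siRCC2 and 9.71 ± 0.635 in siCtrl, and AKR1C2 had 34.5 ± 0.964 in siRCC2 and 6.31 ± 0.179 in siCtrl. AKR1C1 and AKR1C2 did not differ in siRCC2 beyond their spread, and AKR1C1 and AKR1B10 did not in siCtrl. AKR1E2 had 12.4 ± 1.48 in siRCC2, below these genes, and 15.0 ± 1.12 in siCtrl, above them. AKR1B15 was lowest of the genes with counts, at 0.975 ± 0.371 in siRCC2 and 0.838 ± 0.354 in siCtrl. The order below AKR1B1 depends on the lengths taken. GENCODE 29 joins 8765 bases of exon for AKR1C1, and with the median length of its coding transcripts, 858 bases, an alternative added after the data were seen, its level was 153.8 ± 3.12 in siRCC2 and 41.6 ± 2.93 in siCtrl, placing it next after AKR1B1 in siRCC2 and just above AKR1C3 in siCtrl. With the longest transcript of each gene AKR1C3 had 140.5 ± 14.9 in siRCC2 and stood beside AKR1A1, at 130.1 ± 2.24, within its spread. With that length AKR7A2 had 68.5 ± 11.4 in siRCC2 and with the median coding transcript 43.1 ± 7.42, against 115.7 ± 13.2 for AKR1C3, so neither alternative left these genes level. AKR1C2 stood above AKR1B10 in siRCC2 with both, at 46.8 ± 1.29 against 33.9 ± 0.949 with the longest transcript and at 73.7 ± 2.68 against 18.3 ± 0.682 with the median coding transcript.

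The 10 genes together took 886 ± 56.5 CPM in siRCC2 and 696 ± 21.5 CPM in siCtrl, a ratio of 1.27. A further 3 AKR genes and 15 AKR pseudogenes had rows in the tables, and none passed the filter on low counts. The highest of these were AKR7A3, another aflatoxin aldehyde reductase, with at most 22 counts in a library, and AKR7L with at most 15. No AKR pseudogene exceeded 7 counts in a library, and 8 of the 15 had none.

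Genes whose pattern over the 6 libraries was most like that of each aldo-keto reductase were ranked by the root mean square difference of centred log2 CPM, among 8983 genes. These are genes with a mean of at least 10 CPM, without symbols shaped like clone names or ending in P and a number. That rule drops pseudogenes but also ordinary genes with such symbols, CRABP2 among them. With 2 groups of 3 libraries the ranking mainly follows the fold change, from which the aldo-keto reductases were chosen. PANX2, for example, had a log2 fold change of 1.97 and AKR1C1 of 1.98. Whether genes near each other in this ranking are linked was not tested. The AKR1C sum was closest to PANX2, a pannexin channel protein, at 0.07, to TRIB1, a pseudokinase, at 0.07, and to IFITM10 at 0.08. AKR1C1 taken alone was closest to PANX2, to the small GTPase RHOB and to APOL2. AKR1C2 was closest to RN7SL1, the RNA of the signal recognition particle, to the carboxypeptidase CPA4 and to the type IV collagen chain COL4A1. AKR1C3 was closest to MESD, a chaperone of lipoprotein receptors, to PFKFB4, a regulator of glycolysis, and to ID2, an inhibitor of helix-loop-helix factors. AKR1B10 was closest to RN7SL1 at 0.12, with AKR1C1 next at 0.12 and CPA4 at 0.14. AKR1B1 was closest to the autophagy kinase ULK2, to the Fanconi anaemia gene FANCA and to BTBD9, and AKR1A1 to the ARF exchange factor CYTH2, to METTL22 and to HGS of the endosomal sorting machinery. AKR1E2 was closest to ZNF778, WDR90 and MRPL20, and AKR7A2, among the genes reported here, to RNASET2 and PIH1D1.

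Between AKR1E2 and AKR1C4 on chromosome 10 and within 1 Mb on either side, 10 other genes were fitted, of which edgeR called 2 higher and 2 lower. These shares are close to the 20.7% higher and 21.1% lower of all fitted genes and are no result about the neighbourhood. The long noncoding RNA MANCR, close to the AKR1E2 end, had 1.28 CPM in siRCC2 and 0.326 CPM in siCtrl, a log2 fold change of 1.94 ± 0.33. PFKFB3, another regulator of glycolysis, had a log2 fold change of 0.65 ± 0.09. NET1, an exchange factor for RhoA and the nearest fitted gene beyond the AKR1C4 end, had 17.2 CPM in siRCC2 and 42.3 CPM in siCtrl, a log2 fold change of -1.30 ± 0.08. ASB13 was also called lower, at -0.48 ± 0.08.

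Around AKR1B1, AKR1B10 and AKR1B15 on chromosome 7, 11 other genes were fitted in the same span, with 2 called higher and 1 lower, no more than the same background gives. TMEM140 had a log2 fold change of 1.20 ± 0.21 and AGBL3 of 0.96 ± 0.27, both from levels of 3.07 CPM or less in siRCC2. SLC35B4, a nucleotide sugar transporter, had -0.30 ± 0.09. Without siCtrl replicate 1 or 3 or siRCC2 replicate 2 the calls of AGBL3 and SLC35B4 both ended, and that of SLC35B4 also without siCtrl replicate 2 and with the replicate block. BPGM, which makes the glycerate that regulates oxygen release from haemoglobin and lies beyond AKR1B15, had -0.31 ± 0.12 and was not called. The fold change of AKR1B10 was larger than that of any of these 11 neighbours and of AKR1B1 and AKR1B15 beside it.

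**Figure D4:**
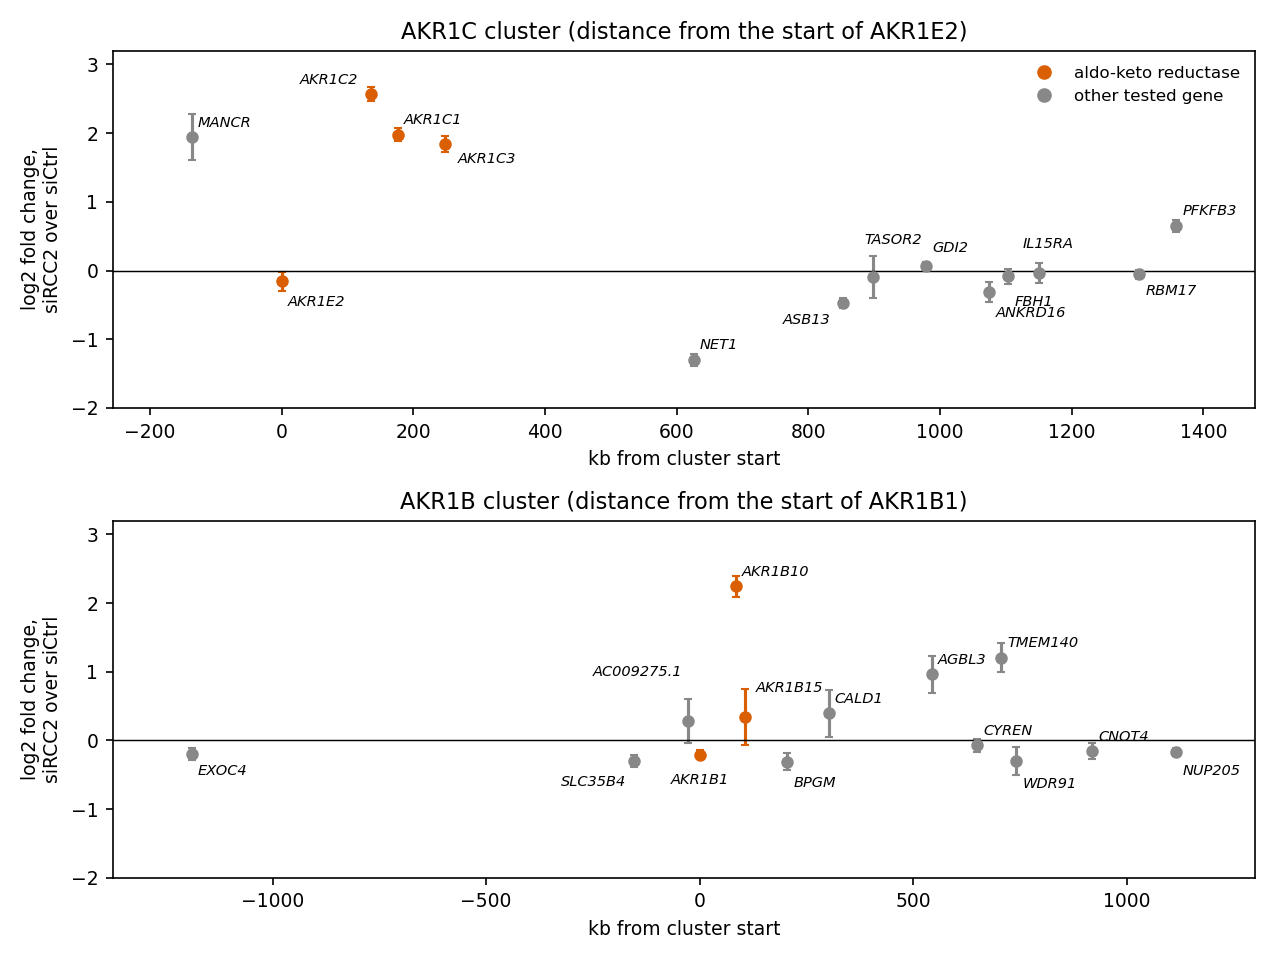
Log2 fold change of siRCC2 over siCtrl, with bars of 1 standard error, against the position of each fitted gene in kilobases from the lower end of the cluster. AKR1C2, AKR1C1 and AKR1C3 stand above 1.8 between AKR1E2 at -0.16 and NET1 at -1.30, and AKR1B10 stands at 2.24 between AKR1B1 at -0.21 and AKR1B15 at 0.34.

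Other enzymes that share substrates or cofactor with the aldo-keto reductases are given by list. The counts below are to be set beside the 20.7% called higher and 21.1% called lower of all fitted genes and their median log2 fold change of -0.02, and a count near those shares is no result about its list. Of 19 fitted carbonyl reductases and retinol dehydrogenases outside the superfamily, 5 were called higher and 5 lower, with a median log2 fold change of -0.04. RDH10, which oxidises retinol to retinaldehyde, had 24.6 ± 3.31 CPM in siRCC2 and 13.7 ± 0.163 CPM in siCtrl (edgeR adjusted p = 0.00167). RDH11, which reduces retinaldehyde, had 143 ± 4.01 CPM in siRCC2 and 102 ± 4.80 CPM in siCtrl (edgeR adjusted p = 0.00146). QDPR, which regenerates tetrahydrobiopterin, rose by a log2 fold change of 0.68 ± 0.08 (edgeR adjusted p = 0.000798). DHRS11, a short-chain dehydrogenase that acts on steroids, had 9.56 ± 1.23 CPM in siRCC2 and 20.9 ± 1.23 CPM in siCtrl (edgeR adjusted p = 0.000644). KCNAB genes, the potassium channel subunits of the superfamily, gave the 2 fitted genes of the list of other superfamily members, and neither was called. KCNAB2 had a log2 fold change of -0.60 ± 0.22 and KCNAB3 of 0.22 ± 0.27. With upper quartile scaling 1 gene of this list was called lower. The count of 5 lower carbonyl reductases was 2 without siCtrl replicate 1, 2 or 3 or siRCC2 replicate 2, and 3 without siRCC2 replicate 3.

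Of 14 fitted genes of steroid reduction, dehydrogenation and conjugation, 3 were called higher and 2 lower, with a median of 0.21. STS, which frees steroids from their sulfates, had 10.7 ± 1.29 CPM in siRCC2 and 5.98 ± 0.351 CPM in siCtrl, a log2 fold change of 0.84 ± 0.14 (edgeR adjusted p = 0.00288). HSD17B10, a mitochondrial dehydrogenase, was called higher at 0.38 ± 0.11 (edgeR adjusted p = 0.0274). HSD3B7 of bile acid synthesis was lower at -0.37 ± 0.08 (edgeR adjusted p = 0.0123), and HSD17B4 of peroxisomal oxidation at -0.33 ± 0.10 (edgeR adjusted p = 0.0322). Only STS among these kept its call without siRCC2 replicate 2, which left 1 higher and 0 lower genes, and leaving out any 1 of the siCtrl libraries left 1 and 1.

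Among 14 fitted genes of the aldehyde dehydrogenase family, 6 were called lower and 2 higher, with a median of -0.39. Only some of these enzymes oxidise aldehydes that aldo-keto reductases reduce. ALDH1L2, the mitochondrial formyltetrahydrofolate dehydrogenase, had 7.85 ± 2.75 CPM in siRCC2 and 40.7 ± 2.11 CPM in siCtrl, a log2 fold change of -2.37 ± 0.24 (edgeR adjusted p = 0.000416). ALDH5A1, which oxidises succinic semialdehyde, the substrate that AKR7A2 reduces, had 9.73 ± 0.660 CPM in siRCC2 and 27.0 ± 1.73 CPM in siCtrl (edgeR adjusted p = 0.000126). ALDH1A3, which makes retinoic acid from retinaldehyde, had 52.2 ± 1.66 CPM in siRCC2 and 83.8 ± 5.24 CPM in siCtrl (edgeR adjusted p = 0.00068), and ALDH16A1 fell by 0.69 ± 0.09 on the log2 scale (edgeR adjusted p = 0.00122). The count of 2 higher genes was 0 without siCtrl replicate 1 or 3 or siRCC2 replicate 2, and 1 without siCtrl replicate 2.

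Of 10 fitted genes of retinoic acid synthesis, breakdown and binding, 5 were called lower and 2 higher, with a median of -0.53. This list shares ALDH1A3 and both of its higher genes, RDH10 among them, with the lists above. CRABP2, which carries retinoic acid to the nucleus, had 23.0 ± 4.48 CPM in siRCC2 and 43.0 ± 2.93 CPM in siCtrl (edgeR adjusted p = 0.00344).

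Of 14 fitted genes of prostaglandin synthesis and breakdown, the route in which AKR1C3 and AKR1B1 act, 3 were called higher and 3 lower, with a median of 0.09. PTGES, the inducible prostaglandin E synthase, had 337 ± 34.3 CPM in siRCC2 and 193 ± 13.9 CPM in siCtrl (edgeR adjusted p = 0.000741). PTGR1, a reductase of prostaglandins and leukotrienes, had 381 ± 23.6 CPM in siRCC2 and 222 ± 10.02 CPM in siCtrl (edgeR adjusted p = 0.000282). SLCO2A1, which imports prostaglandins, had 7.47 ± 0.492 CPM in siRCC2 and 24.5 ± 3.06 CPM in siCtrl, a log2 fold change of -1.71 ± 0.13 (edgeR adjusted p = 0.000141). ABCC4, which exports them, fell by 0.43 ± 0.08 on the log2 scale (edgeR adjusted p = 0.00468).

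Of 15 fitted genes of the polyol, glucuronate and methylglyoxal routes, 3 were called higher and 4 lower, with a median of 0.05. GLO1, which detoxifies methylglyoxal, had 154 ± 1.67 CPM in siRCC2 and 89.5 ± 1.85 CPM in siCtrl (edgeR adjusted p = 0.000153). The fructose kinase KHK fell by 1.08 ± 0.14 on the log2 scale (edgeR adjusted p = 0.00129), the xylulose kinase XYLB by 1.02 ± 0.19 (edgeR adjusted p = 0.00549) and the gulonate dehydrogenase CRYL1 by 0.88 ± 0.12 (edgeR adjusted p = 0.00158). Without siCtrl replicate 2 or 3 the count of higher genes was 1.

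Of 31 fitted genes of the NRF2 pathway and its targets, 8 were called higher and 8 lower, with a median of 0.01. ME1, the cytosolic malic enzyme, had 112 ± 5.04 CPM in siRCC2 and 57.9 ± 2.44 CPM in siCtrl (edgeR adjusted p = 0.000148). The haem oxygenase HMOX1 rose by 0.60 ± 0.08 on the log2 scale (edgeR adjusted p = 0.00104) and the ferritin light chain FTL by 0.87 ± 0.10 (edgeR adjusted p = 0.000697). MAFG, a small MAF partner of NRF2, had 215 ± 19.8 CPM in siRCC2 and 375 ± 6.33 CPM in siCtrl (edgeR adjusted p = 0.000391). NFE2L2, the gene of NRF2 itself, was called lower at -0.59 ± 0.14 (edgeR adjusted p = 0.0144), and was named after its value was seen; the call ended without siCtrl replicate 3. The counts fell to 4 higher without siCtrl replicate 1 or 3 or siRCC2 replicate 2, and to 4 or 5 lower without any 1 siCtrl library or siRCC2 replicate 2.

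Of 14 fitted genes of NADPH supply, 9 were called lower and 2 higher, with a median of -0.40. The 2 higher genes were ME1 and the NAD kinase NADK, which had 155 ± 6.31 CPM in siRCC2 and 105 ± 7.10 CPM in siCtrl (edgeR adjusted p = 0.0013). Among the lower genes was the mitochondrial folate enzyme MTHFD2, with 255 ± 14.8 CPM in siRCC2 and 499 ± 4.49 CPM in siCtrl (edgeR adjusted p = 9.00e-05), and ALDH1L2 from above is also on this list. The count of lower genes was 5 without siRCC2 replicate 2.

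**Figure D5:**
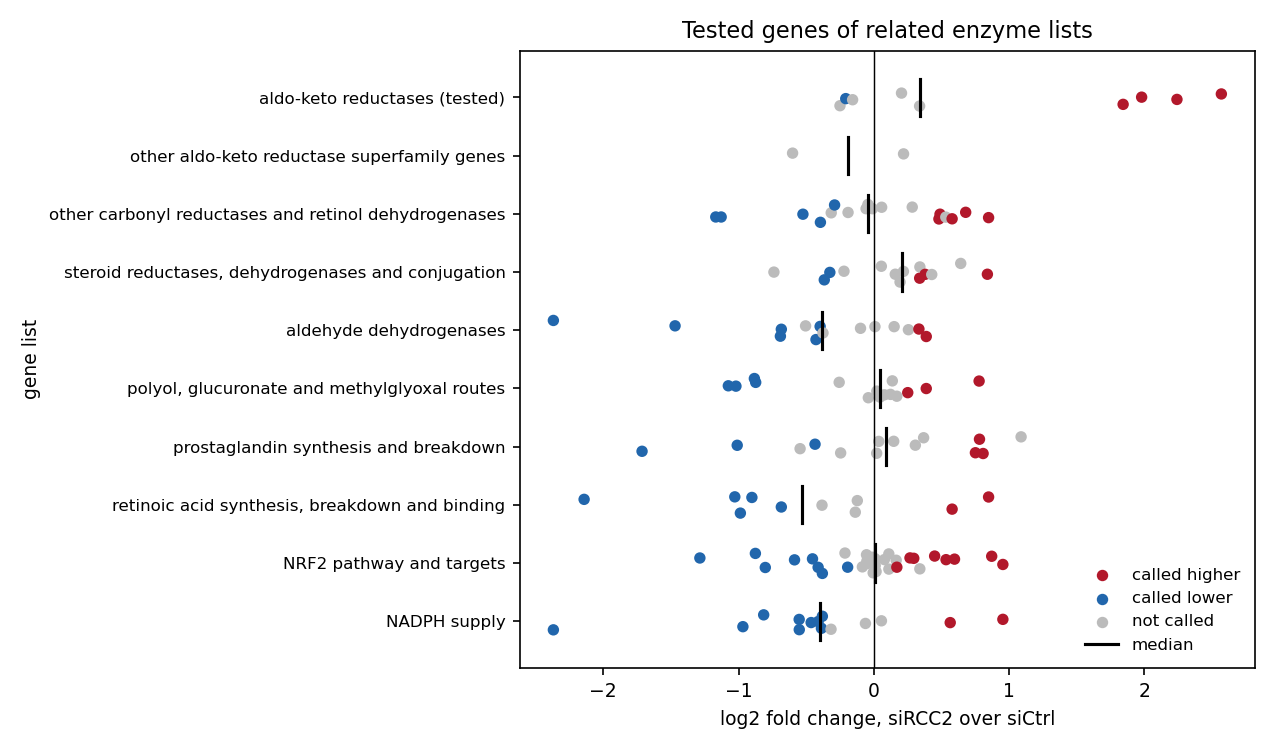
Log2 fold change of siRCC2 over siCtrl for each fitted gene of the aldo-keto reductases and 9 related lists, coloured by the call, with a black line at each list's median. The 4 aldo-keto reductases called higher lie to the right of every other gene shown. They were listed with results of this contrast known, so their place is no independent evidence. Of the 9 lists, the retinoic acid, NADPH and aldehyde dehydrogenase lists have the lowest medians, at -0.53, -0.40 and -0.39.

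Total counts were 17377191 to 19895431 in the siRCC2 libraries and 18206357 to 19808215 in the siCtrl libraries. RCC2 had 980, 1117 and 1045 counts in siRCC2, against 3998, 3598 and 3702 counts in siCtrl, a log2 fold change of -1.76 ± 0.07. The epithelial keratins KRT8 and KRT18 had 729 and 452 CPM in siRCC2 and 462 and 318 CPM in siCtrl. The epithelial marker EPCAM went the other way, with 10.98 CPM in siRCC2 and 15.35 CPM in siCtrl (edgeR adjusted p = 0.0181), a call that ended without siCtrl replicate 1 or 2 or siRCC2 replicate 2. Of the luminal prostate markers, KLK2 had 0 counts in all libraries, and KLK3 and TMPRSS2 had at most 3 counts in any library. TP63, a marker of basal cells, had 0 counts as well. The leukocyte markers PTPRC and CD3E had at most 1 count and the liver markers ALB, APOA1 and TTR at most 12 counts in any library, and CD68 had 19.2 CPM in siRCC2 and 16.3 CPM in siCtrl. Whether the differences in the keratins and EPCAM bear on the aldo-keto reductases was not tested.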

How the data were processed

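RNA was sequenced from 6 libraries of DU145 cells, 3 siRCC2 and 3 siCtrl, grouped and numbered by their titles. Per the labels' protocols, an MGI kit turned total RNA into sequencing libraries. Per the submitters' processing notes, Bowtie2, RSEM and DESeq2 were used with genome build GRCh38; their versions, the read length and any use of strand are not stated there. For each library the authors deposited counts of 50868 genes, all whole numbers, so RSEM estimates may have been rounded before deposit. RSEM divides reads among paralogs, so counts of single AKR1C genes depend on that division.

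The 10 genes, the related gene lists and the alternatives were chosen with earlier results of these data known. Counts were fitted in R 4.3.3 with edgeR 4.0.16 (filterByExpr, TMM scaling, quasi-likelihood F-test, group only) over 16536 genes, adjusted by Benjamini-Hochberg with calls at 0.05. Each fold change has siRCC2 on top, and its standard error follows from the fold and its F statistic. CPM are TMM-scaled, with SD over 3 libraries. DESeq2 1.42.0 and limma 3.58.1 served as alternatives, besides other scalings, filters, a replicate block and leaving out each library. The fit was also run on simulated data, which varied less between replicates than these libraries, so no support is drawn from it. P-values rest on the spread between replicates of unstated origin, possibly technical. Replicates were not copies of each other: chi-square over degrees of freedom was 9.56 to 31.9 for pairs within a group. Intervals for counts of 0 cover counting error only.

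Lengths, strands and coding sequences came from GENCODE 29, which holds 50111 (98.5%) of the gene IDs, and coordinates are those of the deposited tables. Promoters came from RefSeq on GRCh38.p14. Proteins were not used here, and identity was computed on coding sequences in their place. Besides the 10 genes, the text names RCC2, the 3 genes most like each in pattern, and from each list up to 4 called genes with the smallest p and a mean of at least 1 CPM; neighbours and marker genes are named by position or list. Some genes that these rules pick are not reported here. Figures were made with Python 3.11.15 and matplotlib 3.10.9.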

Additional observations from a re-analysis of the deposited data

How the results depend on the processing

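The number of genes called, 6911, lay between 5112 and 7565 under every alternative. AKR1C1, AKR1C2, AKR1C3 and AKR1B10 were called higher under all 14 alternatives, with log2 fold changes of 1.91 to 2.03, 2.50 to 2.63, 1.70 to 1.93 and 2.11 to 2.38 in that order, and the AKR1C sum (1.95 to 2.10) and the AKR1B10 and AKR1B15 sum (1.97 to 2.13) likewise. Since these genes were chosen from the same 6 libraries, this says nothing of their stability. The count of genes called lower, 1 for AKR1B1, was 0 with DESeq2 size factors, with the DESeq2 Wald test, with a filter of a mean of at least 1 CPM and with the replicate block, and from 0 to 2 when a library was left out. AKR1B1 ranged from -0.28 to -0.17 and was called under 5 of 14 alternatives; the cause was not tested. AKR7A2 joined the lower genes without siRCC2 replicate 1, and AKR1A1 the higher genes without siRCC2 replicate 3, making 5 in place of 4. Among the named list genes, 396 values kept their call and 10 lost it, and these 10 were of HSD3B7, HSD17B4, HSD17B10 and NFE2L2. Same-numbered libraries of the groups deviated with correlations of 0.077, -0.040 and 0.125, and different-numbered ones with -0.148 to 0.074. With 3 libraries per group these values cannot show whether the numbers pair the samples. The replicate block called 6295 genes. The lengths taken moved the order of the genes below AKR1B1. Below 1 CPM, as for AKR1B15, values rest on few reads.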
